A study of Mus musculus with 40 samples.

Results

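Stromal cells of colon tumors were compared with stromal cells of healthy colon in 8 of the 40 libraries of the series, which were all the libraries that the sample labels name as tumor stromal cells (4) or healthy colon stromal cells (4). The series holds RNA-seq of cell types sorted from mouse colon tumors, healthy colon and blood, with 4 libraries in each of 10 groups. The tumor libraries came from Cdx2CreERT2 - Apc fl/fl mice, whose strain labels start at C57Bl6/Sv129 and count up from sample to sample and were read as 1 strain. In these mice 1 intraperitoneal dose of Tamoxifen at 25 mg/kg, given at 8 to 10 weeks of age, activates a Cre recombinase that the Cdx2 promoter drives in colon epithelium, so that Apc is deleted in epithelial cells and not in the stroma. The healthy libraries came from C57Bl6 mice with no transgene and no agent. The labels give no age at sampling for either group. Tumor, strain, transgene and Tamoxifen therefore cannot be told apart in this comparison. Cells of both groups were released from tissue by enzymatic digestion and sorted as CD45-, EpCAM- cells, which keeps every cell that is neither leukocyte nor epithelium by those surface proteins, and the titles name a different mouse for each library of a group. Replicates 3 and 4 of the tumor group both carry the number 3 in the labels, and the later sample is called 4 here. Values are RPKM (reads scaled to transcript length and library size), always given in the order of replicates 1 to 4, and differences are log2 fold changes of tumor against healthy with their standard error (SE).

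The stroma of the colon is a mixture of fibroblasts, smooth muscle cells, blood and lymphatic endothelial cells, pericytes and enteric glia. Fibroblasts lay down collagens and other matrix, and those around the crypt base secrete R-spondins, Wnt ligands and antagonists of bone morphogenetic proteins (BMPs), which keep the epithelial stem cells, while those nearer the crypt top secrete BMPs, which favor differentiation. Loss of Apc in the epithelium switches on Wnt target genes in the epithelial cells themselves, whatever ligands the stroma makes.

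Markers of the sorted cell types put the libraries in order before any gene was compared. Counts on genes totaled 12814976 to 22860992 in the tumor stromal libraries and 13031251 to 26516326 in the healthy ones. The level of 20 epithelial markers, as the median percentage of their mean in sorted tumor epithelial cells, was 92.7%, 48.4%, 20.5% and 12.2% in tumor stromal replicates 1 to 4, against 0.409%, 0.245%, 0.19% and 13.7% in the healthy ones. Endothelial markers of tumor stromal replicates 1 and 2 also went against their label, since 14 markers of blood endothelial cells summed to 9.13 and 8.68 RPKM there, as in sorted tumor epithelium (7.52 to 9.37), while replicates 3 and 4 held 232 and 230 RPKM and healthy replicates 1 to 3 held 215 to 280 RPKM. Summed fibroblast markers did not split the tumor libraries in this way. Their sums were 12.3, 32.4, 28.6 and 25.0 RPKM beside 4.91 to 6.45 RPKM in tumor epithelium. Their medians were 0.2, 0.513, 1.56 and 0.729 RPKM, so that replicates 1 and 2 were under 3 and 4 by that measure. Healthy replicate 4 stood apart in another way, with fibroblast markers summed to 2904 RPKM (602 to 865 in the other healthy libraries) and endothelial markers to 49.5 RPKM. Leukocyte markers, which the CD45- gate should remove, summed to 161, 65.2, 1367 and 574 RPKM in the tumor libraries and to 17.5 to 64.4 RPKM in the healthy ones. Mitochondrial genes took 55.4%, 62.9%, 27.4% and 24.8% of counts in the tumor libraries and 15.6% to 24.9% in the healthy ones. Counts over gene lists are therefore also given with tumor replicates 3 and 4 as the only tumor libraries, and, in an alternative chosen after the data were seen, for these 2 against healthy replicates 1 to 3.

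**Figure D1:**
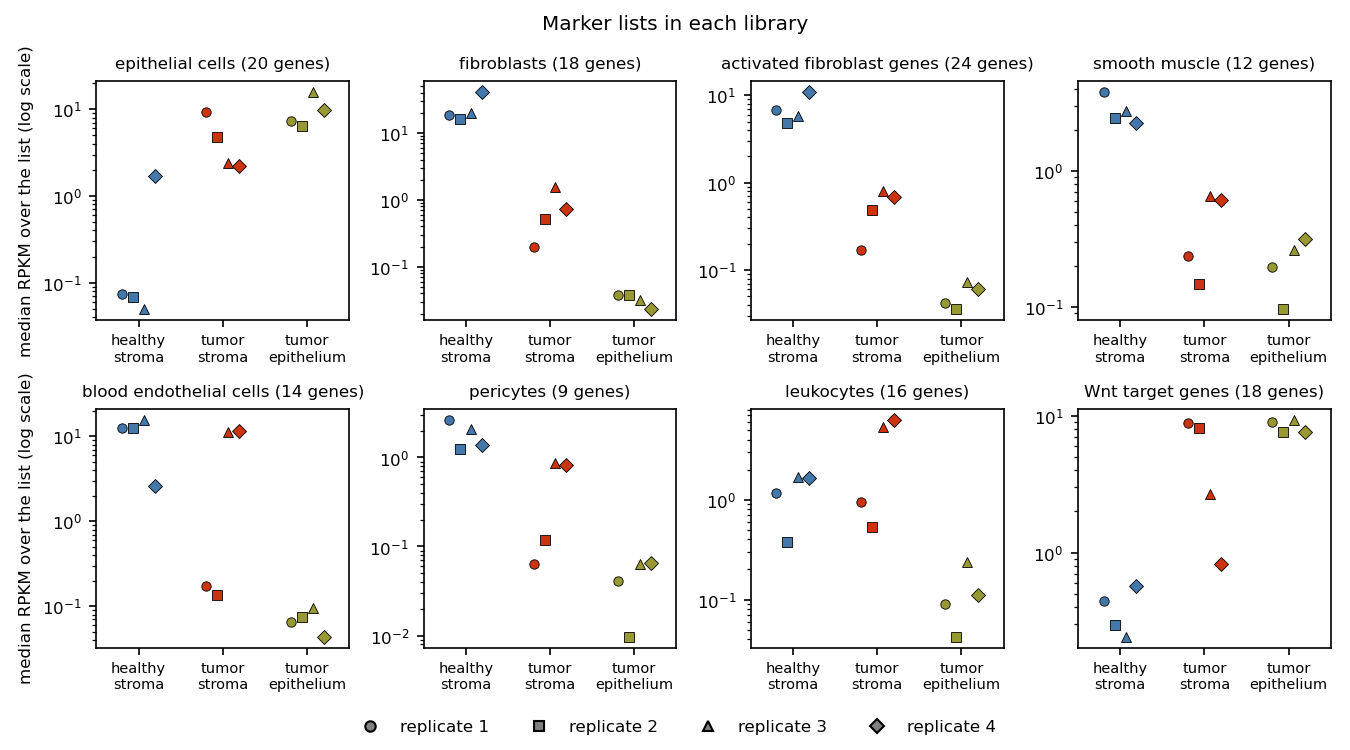
Median RPKM over each gene list (log axis) in each healthy stromal, tumor stromal and tumor epithelial library, with 1 symbol per library and the symbol's shape giving the replicate. Endothelial medians of tumor stromal replicates 1 and 2 (0.175 and 0.136) lie near those of tumor epithelium, and fibroblast medians of all 4 tumor stromal libraries (0.2 to 1.56) lie under those of the healthy ones (16.3 to 40.3).

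More genes fell than rose in tumor stroma when the 8 libraries were fitted on their own. With edgeR's quasi-likelihood test on 19081 genes (Benjamini-Hochberg adjusted p under 0.05 and a log2 fold change beyond 1.5 in either direction), 956 genes (5.01%) fell and 646 (3.39%) rose, and the median change of all genes tested was 0.03. The split was 453 falls and 102 rises by limma on log2(RPKM + 1), 1439 and 469 on log2(RPKM + 0.1), where the medians of all genes were -0.12 and -0.30, and 1068 and 1199 when all 40 libraries were fitted in 1 model. The 4 tumor values lay wholly under the 4 healthy values in 950 of the 956 falls and wholly above in 526 of the 646 rises, where 4109 (21.5%) of all tested genes had such a gap. With tumor replicates 3 and 4 alone, 631 of 20786 genes (3.04%) fell and 561 (2.7%) rose, and 511 of the 956 falls and 253 of the 646 rises remained. Against healthy replicates 1 to 3 these 2 libraries gave 1246 falls (6.08%) and 1076 rises (5.25%) of 20482 genes, and 757 of the 956 falls and 429 of the 646 rises remained. Leaving out 1 library gave 606 falls without healthy replicate 2 and 636 without tumor replicate 2, and 221, 233 and 311 rises without healthy replicates 2, 1 and 3 and 398 and 417 without tumor replicates 1 and 2. In sorted cells, fewer cells of a type and less RNA per cell cannot be told apart.

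The 12 largest falls included genes of matrix-producing fibroblasts. Dpt (chr1:164796644-164824266, mm10), which encodes the matrix protein dermatopontin, was at 0.902, 2.15, 1.18 and 1.61 RPKM in tumor stroma and at 177, 117, 138 and 654 RPKM in healthy stroma, a fall by 7.15 (SE 0.81, adjusted p = 0.00459). Efemp1, which encodes a fibulin of the matrix, was at 0.0415, 0.54, 0.649 and 0.519 RPKM in tumor stroma and at 36.9, 32.5, 24.4 and 155 RPKM in healthy stroma. Htra3, a secreted serine protease, was at 0.0321 to 0.222 RPKM against 6.38 to 28.7 RPKM, a change of -6.67 (SE 0.84, adjusted p = 0.00483). In all 3 genes the groups were far apart, and healthy replicate 4 was the highest library.

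Among the 12 largest falls there were also surface proteins and channels. Negr1, a cell adhesion molecule, changed by -8.27 (SE 0.65, adjusted p = 0.00433), from 1.18, 1.7, 1.27 and 1.73 RPKM in healthy stroma to between 0.000621 and 0.00624 RPKM in tumor stroma. Kcnk2, a background potassium channel, was at 2.5, 2.73, 2.59 and 4.46 RPKM in healthy stroma, and its highest tumor value was 0.039 RPKM, in replicate 3. Adcyap1r1, the receptor of the neuropeptide PACAP, was at 1.98 to 8.57 RPKM in healthy stroma and at 0.00284 to 0.037 RPKM in tumor stroma. No tumor library reached a healthy one in these genes, nor in Ces1d (-7.66), Dpep1 (-6.99), Adamtsl3 (-6.91), Edil3 (-6.64), Opcml (-8.11) and Mmrn1 (-7.07). Opcml and Mmrn1 were not called with tumor replicates 3 and 4 alone. The call of Mmrn1, a marker of lymphatic endothelium that was at 12.8 RPKM in healthy replicate 1 and at 0.113 to 2.28 RPKM in the other healthy libraries, was lost without any library but healthy replicate 4, with changes of -7.74 to -5.21. Negr1, Kcnk2 and Opcml overlap other annotated genes, whose reads could be shared with them.

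Fibroblast markers fell together. Of 18 tested, 14 fell and 0 rose, with a median change of -4.85, and 12 fell with tumor replicates 3 and 4 alone (13 against healthy replicates 1 to 3). Dcn, which encodes the matrix proteoglycan decorin, was at 2.74, 14.4, 6.64 and 9.39 RPKM in tumor stroma and at 267, 453, 195 and 1322 RPKM in healthy stroma, a fall by 5.69 (SE 0.89, adjusted p = 0.00819). Tcf21, a transcription factor of fibroblast progenitors, was at 0.1, 0.149, 0.65 and 0.334 RPKM against 16.4, 15.2, 23 and 15.7 RPKM, which was a fall by 5.50 (SE 0.56, adjusted p = 0.00433). The main fibrillar collagen chains Col1a1 (-4.81), Col1a2 (-4.94) and Col3a1 (-4.70) and the beaded-filament chains Col6a1 (-5.08), Col6a2 (-4.89) and Col6a3 (-5.17) all fell, with no overlap between the groups. Pdgfra, the receptor that marks most fibroblasts of the gut, was at 0.24, 0.428, 2.08 and 0.847 RPKM in tumor stroma against 9.61 to 25.3 RPKM in healthy stroma. Osr2, the 1 marker with a positive value, had a change of 2.24 that did not pass the test (adjusted p = 0.284) and one of -0.45 with tumor replicates 3 and 4 alone.

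Some fibroblast transcripts of tumor stroma were above their level in sorted tumor epithelium. In a fit of tumor stromal against tumor epithelial libraries, 5 of 16985 genes (0.0294%) were called higher in stroma and 0 (0.0%) lower. The 5 were Dcn, Col3a1, the receptor tyrosine kinase gene Axl, the macrophage marker Adgre1 and Rgs1, a regulator of G-protein signaling. Dcn was at 0.0937 to 0.193 RPKM in the epithelial libraries, which was 5.94 lower on the log2 scale than in tumor stroma (adjusted p = 0.0244). At an unadjusted p under 0.05, 2025 genes were higher and 482 lower, and limma-voom called 0 and 0 and DESeq2 1206 and 40. Without tumor stromal replicate 1 or 2 the counts called higher were 813 and 797, without tumor epithelial replicate 3 the count was 1, and without tumor stromal replicate 3 or 4 or epithelial replicate 1, 2 or 4 it was 0. With tumor stromal replicates 3 and 4 alone, 3162 of 19784 genes (16.0%) were higher and 1309 (6.62%) lower than in epithelium. Tumor stromal replicates 3 and 4 came from the same 2 mice as tumor epithelial replicates 1 and 2 by their titles, which these fits do not use. With the mouse as a random block, chosen after the data were seen, limma-voom called 0 and 0 over all 8 libraries and 3700 and 1353 with stromal replicates 3 and 4 alone (3622 and 1291 without the block).

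The genes that mark activated fibroblasts of tumors and wounds fell as well. Of 23 tested, 16 fell and 0 rose, with a median change of -3.40 (12 of 22 fell with tumor replicates 3 and 4 alone, and 17 fell and 1 rose, Thbs1 by 1.51, against healthy replicates 1 to 3). Postn, which encodes periostin, was at 0.171, 0.519, 2.89 and 1.38 RPKM in tumor stroma and at 48.6, 36.4, 35.7 and 50.6 RPKM in healthy stroma, a fall by 4.81 (SE 0.79, adjusted p = 0.00937). Tnc, which encodes tenascin C, was at 0.167 to 2.06 RPKM against 11.9 to 20.2 RPKM. The enzymes that cross-link collagen fell alike, namely Lox (-3.17), Loxl1 (-5.74), Loxl2 (-3.60) and Loxl3 (-3.86). Spon2, a secreted matrix protein, was at 0.343, 0.667, 0.141 and 0.0955 RPKM in tumor stroma against 13.7 to 28 RPKM in healthy stroma. Fap, a surface protease that gave these cells their common marker, fell by 4.08, a call that was lost without healthy replicate 1 or 2 (-4.26 and -4.28) or tumor replicate 2 or 3 (-3.94 and -3.98). Thbs1 and Cthrc1 had values of 0.23 and 1.53 and did not pass the test.

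Smooth muscle and glial markers fell too. Of 12 smooth muscle genes 9 fell, with a median of -3.15 (5 with tumor replicates 3 and 4 alone, 10 against healthy replicates 1 to 3). Acta2, smooth muscle actin, was at 1.99, 2.16, 2.19 and 2.25 RPKM in the tumor libraries and at 39.9, 20.2, 15 and 7.73 RPKM in the healthy ones, a fall by 2.88 (SE 0.46, adjusted p = 0.00864). The tumor libraries were close to each other and to the epithelial mean of 1.41 RPKM, and the healthy ones were spread. Hhip, a Hedgehog-binding protein, was at 0.00164 to 0.0214 RPKM in tumor stroma and at 0.789 to 2.61 RPKM in healthy stroma. Of 7 markers of enteric glia 4 fell (2 with tumor replicates 3 and 4 alone, 5 against healthy replicates 1 to 3), among them Cdh19 (-4.29) and Gfap (-3.46).

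**Figure D2:**
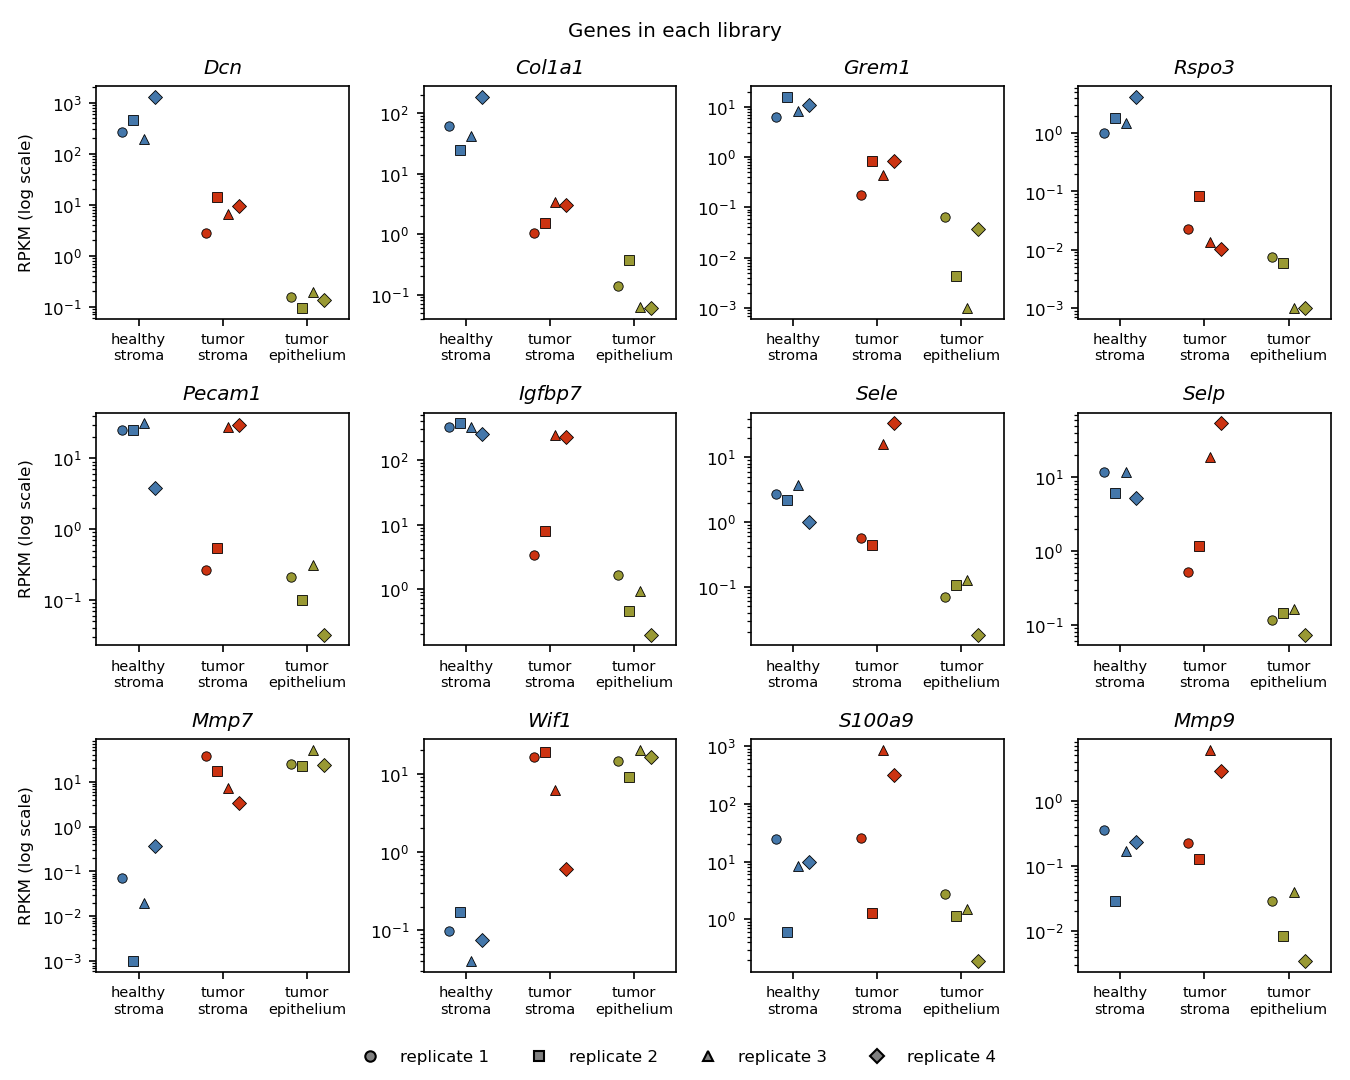
RPKM of 12 genes (log axis, values under 0.001 drawn at 0.001) in each healthy stromal, tumor stromal and tumor epithelial library, with 1 symbol per library and the symbol's shape giving the replicate. Niche and matrix genes such as Grem1 (0.178 to 0.834 against 6.36 to 16) are low in all 4 tumor stromal libraries, whereas endothelial genes split tumor replicates 1 and 2 from 3 and 4.

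Signals that fibroblasts send to the crypt were next. Of 12 Wnt ligands and R-spondins tested, 6 fell and 1 rose, with a median of -2.65 (3 fell and 0 rose with tumor replicates 3 and 4 alone, 5 and 0 against healthy replicates 1 to 3). Rspo3, an R-spondin that amplifies Wnt signaling through Lgr receptors, was at 0.0224, 0.0849, 0.0137 and 0.0102 RPKM in tumor stroma and at 0.991, 1.82, 1.52 and 4.25 RPKM in healthy stroma, a fall by 5.61 (SE 0.90, adjusted p = 0.0087). Wnt2b, a canonical Wnt ligand, was at 0.103, 0.0361, 0.196 and 0.274 RPKM against 5.07, 6.61, 5.05 and 12.9 RPKM, a fall by 5.32 (SE 0.65, adjusted p = 0.00473). Every tumor library was under every healthy library in both genes. Wnt4 fell by 4.28. Wnt2 had at most 3 counts in each tumor library, so that it was at least 13.6-fold higher in healthy stroma. Rspo1 (-3.94) and Wnt5a (-2.38) fell, but the call of Rspo1 was lost without healthy replicate 2 (-4.00), tumor replicate 1 (-3.92) or tumor replicate 2 (-3.77), and that of Wnt5a without tumor replicate 1 (-2.12) or 2 (-2.58) or healthy replicate 1 (-2.45), 3 (-2.50) or 4 (-2.06).

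The 1 Wnt ligand that rose was Wnt6, at 2.57, 1.7, 1.17 and 0.0866 RPKM in tumor stroma and at 0.0163 to 0.231 RPKM in healthy stroma. Its mean in sorted tumor epithelium was 1.78 RPKM, within the range of the tumor stromal libraries. The change of 4.59 was lost as a call without healthy replicate 2, 3 or 4 (4.27, 4.26 and 4.26) or tumor replicate 1, 2 or 3 (4.17, 4.38 and 4.72), and with tumor replicates 3 and 4 alone (3.32).

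The secreted Wnt inhibitors split between genes that fell and genes that rose, 1 and 2 of 9 tested (1 and 2 with tumor replicates 3 and 4 alone, 3 and 2 against healthy replicates 1 to 3). Sfrp1, a frizzled-related protein that binds Wnt ligands, was at 0.3, 1.28, 0.887 and 1.65 RPKM in tumor stroma and at 41, 44.7, 60.2 and 15.3 RPKM in healthy stroma, a fall by 4.89 (SE 0.65, adjusted p = 0.0053). Wif1 (chr10:121033960-121100650), which also binds Wnt ligands, was at 16.5, 19.3, 6.21 and 0.601 RPKM in tumor stroma and at 0.0399 to 0.173 RPKM in healthy stroma, a rise of 7.18 (SE 1.15, adjusted p = 0.00864). Sorted tumor epithelium held Wif1 at 14.5, 9.13, 20.3 and 16.3 RPKM, so that tumor stromal replicates 1 and 2 were among the epithelial values and replicates 3 and 4 under all of them. Notum, which removes the lipid from Wnt ligands and is itself a Wnt target, rose by 6.31 (SE 1.14, adjusted p = 0.0134). Its replicates 1 and 2 were again above 3 and 4, at 13.8, 11.4, 3.62 and 0.633 RPKM beside an epithelial mean of 10.2 RPKM. The other 6 inhibitors tested did not pass the test, Sfrp2 (-4.94) and Sfrp4 (-5.09) among them.

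BMP ligands and their antagonists were both lower. Of 10 genes listed as BMP ligands 4 fell and 0 rose (1 fell with tumor replicates 3 and 4 alone, 2 against healthy replicates 1 to 3), with a median of -2.19. Bmp1, counted among these falls, encodes a metalloproteinase and not a ligand. Bmp4 was at 1.02, 1.87, 2.71 and 2.25 RPKM in tumor stroma against 21.2, 24.6, 37.2 and 14.3 RPKM in healthy stroma, a fall by 3.26 (SE 0.39, adjusted p = 0.00473). Of 11 antagonists 6 fell and 0 rose (4 with tumor replicates 3 and 4 alone, 8 against healthy replicates 1 to 3), with a median of -3.30. Grem1 (chr2:113746164-113758646), which encodes gremlin 1 and marks fibroblasts under the crypt, was at 0.178, 0.821, 0.449 and 0.834 RPKM in tumor stroma against 6.36, 16, 8.15 and 11.1 RPKM in healthy stroma, a fall by 3.82 (SE 0.59, adjusted p = 0.00793). Nbl1 (-3.30) had no overlap between the groups either. The calls of Bmp1, Bmp6, Gdf10, Chrd, Fstl1 and Fstl3, which were also among these falls, were each lost without at least 1 library. Bmp1 was lost without tumor replicate 1 (-1.59) or 3 (-1.61) or healthy replicate 4 (-1.30), Bmp6 without any library but tumor 3 and healthy 1 (-2.86 to -2.31), Gdf10 without tumor or healthy 1 or 2 (-4.81 to -4.40), Chrd without any library but tumor 4 (-3.72 to -3.07), Fstl1 without tumor 2 (-2.92) or 3 (-3.18) and Fstl3 without tumor 1 or 3 or healthy 1 or 2 (-2.38 to -2.27).

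Trophocyte genes are here those listed for fibroblasts of the crypt base, and telocyte genes those listed for telocytes of the crypt top. Of 12 trophocyte genes 6 fell, with a median of -3.32, and of 12 telocyte genes 2 fell, with a median of -1.36 (3 and 1 with tumor replicates 3 and 4 alone, 5 and 3 against healthy replicates 1 to 3). Besides Grem1, Rspo3, Wnt2b and Rspo1 the trophocyte genes that fell were C3 and Ackr4, at -4.28 and -4.91. The calls of C3, complement factor 3, and of Ackr4, a chemokine scavenger, were lost without tumor replicate 1, 2 or 3 or healthy replicate 2, with changes from -4.45 to -4.15 and from -4.91 to -4.59. Edn3, which encodes endothelin 3, was a telocyte gene that fell, from 0.554 to 2.38 RPKM in healthy stroma to 0.0313 to 0.123 RPKM in tumor stroma (-3.73, SE 0.72, adjusted p = 0.0163). Foxl1, the telocyte transcription factor, was at 0.0056 to 0.165 RPKM in tumor and 0.00876 to 0.254 RPKM in healthy stroma, and the groups overlapped.

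Matrix metalloproteinases, the enzymes that cut matrix proteins, changed in both directions. Mmp2, a gelatinase of fibroblasts, was at 0.544, 1.17, 2.51 and 0.936 RPKM in tumor stroma against 23.2, 23.4, 21.5 and 44.3 RPKM in healthy stroma, a fall by 4.12 (SE 0.52, adjusted p = 0.00483). Mmp7, or matrilysin, an epithelial metalloproteinase, rose by 7.47 (SE 1.33, adjusted p = 0.0126), from 0.000288 to 0.363 RPKM to 36.5, 16.9, 7.16 and 3.44 RPKM, while sorted tumor epithelium held 22.8 to 51.5 RPKM. Mmp9, a gelatinase of neutrophils, was at 0.221, 0.125, 6.09 and 2.92 RPKM in tumor stroma and at 0.0289 to 0.357 RPKM in healthy stroma, a value of 3.85 that did not pass the test (adjusted p = 0.0851). With tumor replicates 3 and 4 alone it was called (4.80, adjusted p = 0.0142), and so was Mmp8 (5.86), the neutrophil collagenase, in libraries where S100a8 and S100a9, the most abundant neutrophil proteins, stood at 388 and 103 RPKM and at 864 and 316 RPKM. The mean of Mmp9 in sorted tumor neutrophils was 41.7 RPKM. Of the 22 metalloproteinases and inhibitors tested, 6 fell and 1 rose (4 and 4 with tumor replicates 3 and 4 alone, 8 and 6 against healthy replicates 1 to 3), and Timp2, an inhibitor, fell by 3.80 from 30.9 to 178 RPKM to 3.35 to 5.18 RPKM. Of the 6 falls only that of Mmp23 was lost when a library was left out, with changes of -3.42 to -2.75 without any library but tumor replicate 1.

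The 12 largest rises included epithelial genes. Krt23 (chr11:99477974-99493137), a keratin, was at 19.6, 9.3, 3.16 and 1.59 RPKM in tumor stroma and at 0.112, 0.00909, 0.0239 and 0.00969 RPKM in healthy stroma, a rise of 8.06 (SE 1.17, adjusted p = 0.00674). Sorted tumor epithelium held it at 11.6, 7.41, 27.4 and 15.9 RPKM. S100g, an intestinal calcium-binding protein, was at 116, 78.8, 49.6 and 7.7 RPKM in tumor stroma, at 0.088 to 1.02 RPKM in healthy stroma and at 110 to 175 RPKM in tumor epithelium. In both genes the order of the tumor stromal libraries was that of their epithelial markers.

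Among the 12 largest rises were also the pancreatic lipase relatives Pnliprp2 (8.53) and Pnliprp1 (7.85), Bpifb5 (8.44), complement factor I (Cfi, 7.81), the desmosomal cadherin Dsc3 (7.68), the secreted phospholipase Pla2g2a (7.52), Mmp7, the epithelial transcription factor Grhl3 (7.13), and Wif1. Bpifb5 was at 50.8, 59.8, 31.8 and 4.98 RPKM in tumor stroma, where replicates 1 and 2 were above 3 and 4, and at 36.3 to 54.4 RPKM in epithelium. None of the 12 was among the 5 genes called between the 4 tumor stromal and the 4 tumor epithelial libraries (changes of -1.43 to -0.27), and with tumor stromal replicates 3 and 4 alone 11 were called lower than in epithelium, all but Bpifb5 (-1.47), whose values there were also under those of every epithelial library. Against healthy stroma, 11 of the 12 were also called with tumor replicates 3 and 4 alone, all but Cfi (3.82). With the epithelial marker level as a covariate 11 of the 12 were no longer called, with changes of 1.61 to 6.01 over the 12, and Bpifb5 (5.21) was. That level was itself 12.2% to 92.7% in the tumor and 0.19% to 13.7% in the healthy libraries, and so it varied with the group. A lost call in this fit therefore cannot separate epithelial transcripts from the group difference. Single libraries decided the calls of Cfi (lost without tumor replicate 1 or 2 or healthy replicate 1, 2 or 3, 6.28 to 7.83), Dsc3 (healthy 1 or 2, 7.45 and 7.35), Pla2g2a (healthy 1, 7.21) and Pnliprp1 (healthy 2, 7.54). By limma-voom, Pnliprp1, Wif1, Pnliprp2, Grhl3 and Cfi were not called (adjusted p of 0.0583, 0.0764, 0.0811, 0.0864 and 0.146), and the others of the 12 were.

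Over all 646 rises, 488 (75.5%) had a lower mean in tumor stroma than in tumor epithelium. In 51 every tumor stromal library was above every epithelial library, in 39 every one was below, and in 556 the ranges overlapped. Tumor stromal replicates 1 and 2 were both above replicates 3 and 4 in 402 rises and both below in 113. For the lower means and for this split of replicates, no share of all tested genes was counted. Over all 19081 genes tested the shares above and below every epithelial library were 5.63% and 1.82%. Of the same 646 rises, 103 (15.9%) were above and 329 (50.9%) below every epithelial library when replicates 3 and 4 alone were counted. Of the 561 genes that rose in the fit with replicates 3 and 4 alone, a different set, 387 were above and 97 below, beside 31.6% and 15.5% of the 20786 genes of that fit. What part epithelial cells had in these rises was not tested.

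**Figure D3:**
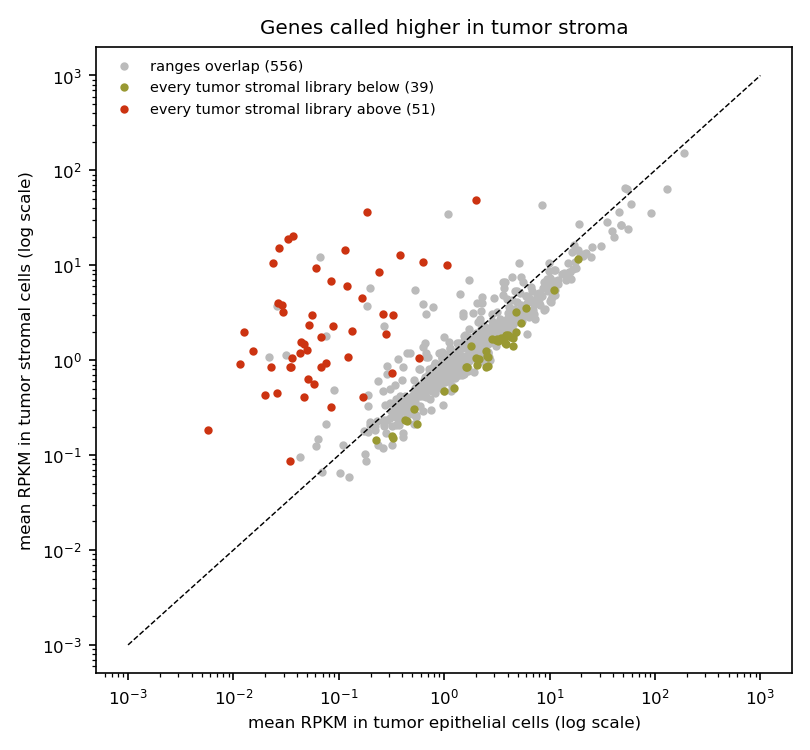
Mean RPKM of each gene called higher in tumor stroma (vertical, 4 libraries) against its mean in sorted tumor epithelium (horizontal), both on log axes, with a dashed line where both are equal and color for genes whose 4 tumor stromal libraries were all above (51) or all below (39) the 4 epithelial ones. Of the 646 genes 488 lie under the line.

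Epithelial markers gave the same picture with fewer calls. Epcam, the surface protein used in the gate, was at 51, 31.5, 12.8 and 5.43 RPKM in tumor stroma and at 0.164, 0.0678, 0.277 and 4.42 RPKM in healthy stroma, and its value of 4.72 did not pass the test (adjusted p = 0.0752). Healthy replicate 4 was close to tumor replicate 4. Of 19 epithelial markers 4 rose and 0 fell, with a median of 3.77 (1 with tumor replicates 3 and 4 alone), and 15 of 18 rose once healthy replicate 4 was also left out. The 4 were Cdh17 (4.60, SE 0.67, adjusted p = 0.00679), an intestinal cadherin, and Cdh1, Vil1 and Lgals4. The last 3 were lost as calls without tumor replicate 1 or 2 or healthy replicate 1, 2 or 3, Cdh1 also without tumor replicate 3 or 4 and Lgals4 also without healthy replicate 4, with changes of 5.30 to 6.06, 2.28 to 2.82 and 1.40 to 1.95.

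Wnt target genes rose, also in tumor replicates 3 and 4. Of 18 tested 11 rose and 0 fell, with a median of 3.65 (8 of 17 with tumor replicates 3 and 4 alone, 11 of 17 against healthy replicates 1 to 3). The median level of the list was 8.84, 8.18, 2.66 and 0.83 RPKM in tumor stroma, the order of the epithelial markers. It was 0.243 to 0.574 RPKM in healthy stroma and 7.67 to 9.3 RPKM in tumor epithelium, so that replicates 3 and 4 were under every epithelial library. Which cells held these transcripts was not tested. Lef1, a transcription factor that carries the Wnt signal with beta-catenin, was at 1.17, 0.893, 0.631 and 1.14 RPKM in tumor stroma and at 0.0248 to 0.122 RPKM in healthy stroma, a rise of 4.15 (SE 0.50, adjusted p = 0.00473). Sp5, a direct target, was at 1.75, 1.27, 0.726 and 0.254 RPKM against 0.0154 to 0.0227 RPKM (5.89, SE 0.74, adjusted p = 0.00483). The means in tumor epithelium were 0.97 RPKM for Lef1 and 1.06 RPKM for Sp5, within the tumor stromal ranges. Nkd1 (4.41), Znrf3 (3.04), Lgr6 (4.44), Apcdd1 (3.15), Notum and Wif1, which feed back on the pathway or mark its stem cells, rose too. Lgr5 (4.93), Rnf43 (5.41) and Ascl2 (6.12) were lost as calls without healthy replicate 1 (4.84, 5.20 and 5.96) or 2 (4.62, 5.03 and 5.71), and Rnf43 and Ascl2 also without healthy replicate 3 (5.23 and 5.98). Axin2, at 13.5, 10.4, 4.09 and 1.26 RPKM against 0.551 to 2.75 RPKM, did not pass the test (2.96, adjusted p = 0.0554). Apc itself, of which the whole-gene value does not show the deletion, was at 3.19 to 4.78 RPKM in tumor and 2.6 to 6.14 RPKM in healthy stroma (0.43, adjusted p = 0.484).

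Genes of dividing cells rose. Of 19 cell cycle genes tested, 8 rose and 0 fell, with a median of 1.94 (7 with tumor replicates 3 and 4 alone, 7 against healthy replicates 1 to 3). Top2a, a topoisomerase of dividing cells, was at 3.76, 2.83, 2.46 and 1.33 RPKM in tumor stroma and at 0.523, 0.331, 0.325 and 0.532 RPKM in healthy stroma, a rise of 2.98 (SE 0.39, adjusted p = 0.00522). Mki67 was at 7.47, 5.07, 5.9 and 4.77 RPKM against 1.64, 0.533, 1.04 and 2.13 RPKM (2.49, SE 0.42, adjusted p = 0.00998), beside 8.65 RPKM on average in tumor epithelium. Cdk1 (4.42), Bub1 (3.80), Cenpf (3.67), Cenpe (3.21), Ccna2 (3.16) and Ube2c (2.19) were the others. Pcna, a replication clamp, had a value of -0.84 that did not pass the test.

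By the rule for named genes 7 rises were above every tumor epithelial library, and each was higher on average in sorted tumor neutrophils or monocytes. Il1f9, an interleukin 1 family cytokine, was at 1.21, 0.312, 23.2 and 17.8 RPKM in tumor stroma, at 0.0361 to 0.297 RPKM in healthy stroma and at 219 RPKM on average in tumor neutrophils. Clec4d, a C-type lectin of neutrophils and macrophages, was at 0.84, 0.794, 33.5 and 22.5 RPKM against 0.000287 to 0.419 RPKM. Both were highest in tumor replicates 3 and 4, where leukocyte markers were highest. Tlr13 (4.21), the chemokine Ccl3 (3.98), Gpr35 (3.60), the protease Ctss (2.87) and the oxidase subunit Cybb (2.77) were the others, and Ctss alone was not called with tumor replicates 3 and 4 only. All 7 calls were lost without at least 1 library, each of them without healthy replicate 1 (6.27 for Il1f9, 6.35 for Clec4d, 4.44 for Tlr13, 3.57 for Ccl3, 3.41 for Gpr35, 2.65 for Ctss and 2.69 for Cybb) and without healthy replicate 3 (6.10, 6.04, 3.88, 4.40, 3.55, 2.83 and 2.73). Other libraries decided some of them, namely healthy replicate 2 (all but Ctss), healthy replicate 4 (Clec4d and Tlr13), tumor replicates 1 and 2 (Ctss), tumor replicate 3 (all but Il1f9) and tumor replicate 4 (all but Il1f9 and Cybb), and the lowest change among these fits was 2.44, that of Cybb without healthy replicate 2. Over all rises, 49 of the 51 genes above every epithelial library had a lower mean than tumor neutrophils or monocytes, and so had 350 of the 387 with tumor replicates 3 and 4 alone. A gene passed if either of these means was higher, and no share of all genes was counted for comparison.

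Of 16 leukocyte markers 2 rose, Lyz2 and Csf1r, with a median of 1.94 over the list (5 with tumor replicates 3 and 4 alone and 9 against healthy replicates 1 to 3). Ptprc, which encodes CD45, the protein the gate excludes, was at 0.586, 0.302, 7.29 and 10.8 RPKM in tumor stroma and at 0.234 to 1.12 RPKM in healthy stroma. It was called with tumor replicates 3 and 4 alone (3.83) and not with all 4 tumor libraries (2.90, adjusted p = 0.119). The calls of Lyz2 and Csf1r were lost without tumor replicate 1 or healthy replicate 1, 2 or 3, and that of Csf1r also without tumor replicate 2, 3 or 4, with changes of 3.59 to 3.73 and 2.27 to 2.81. The part of leukocytes in the rises was not tested.

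Vessel markers were not called different. Of 14 markers of blood endothelial cells 0 were called, with a median of -0.61 in the full comparison, and also 0 with tumor replicates 3 and 4 alone (0.37) and against healthy replicates 1 to 3 (0.03). Pecam1, an endothelial junction protein, was at 0.263, 0.542, 28 and 29.7 RPKM in tumor stroma and at 24.9, 24.8, 31.4 and 3.84 RPKM in healthy stroma. The low libraries were tumor replicates 1 and 2 and healthy replicate 4, so the groups overlapped, and a value of -0.25 with an SE of 1.25 leaves a wide range for the true change. Of 9 pericyte markers 0 were called, with a median of -1.28 (1 fell with tumor replicates 3 and 4 alone, Pdgfrb, by 1.63, and 2 against healthy replicates 1 to 3). Igfbp7, a secreted protein abundant in vessels, was at 3.35, 7.84, 247 and 225 RPKM against 321, 375, 331 and 250 RPKM, a value of -1.13 (SE 1.08, adjusted p = 0.564), and of -0.16 with tumor replicates 3 and 4 alone. Of 15 genes of tumor vessels 1 fell, Ackr3, which was lost as a call without any library but tumor and healthy replicate 3 (-2.85 to -2.24), and 0 were called with tumor replicates 3 and 4 alone and 1 in each direction against healthy replicates 1 to 3.

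Of the 561 genes that rose with tumor replicates 3 and 4 alone, 21 were higher in both libraries than in every healthy stromal library and every sorted tumor epithelial, neutrophil and monocyte library. The 10 of these whose log2 CPM averaged 3 or more were Sele, Selp, Insr, Inhbb, Cfap69, Epb41, Tent5c, Cacna1e and the non-coding or predicted genes Gm16587 and Gm43343, a choice made after their values were seen. High values in tumor replicates 3 and 4 were part of the condition, and how many of all tested genes met it was not counted. Sele and Selp encode E- and P-selectin, which endothelial cells display to slow passing leukocytes. Their promoters are shown because both selectins were among these genes. The 250 bases before each start site (RefSeq, GRCm38.p6, plus strand, Sele at chr1:164047984-164048233 and Selp at chr1:164115014-164115263) read as follows, with matches to TATAAA and to GGNNNTTCC, an NF-kappaB-like motif, on either strand in capitals.
Sele: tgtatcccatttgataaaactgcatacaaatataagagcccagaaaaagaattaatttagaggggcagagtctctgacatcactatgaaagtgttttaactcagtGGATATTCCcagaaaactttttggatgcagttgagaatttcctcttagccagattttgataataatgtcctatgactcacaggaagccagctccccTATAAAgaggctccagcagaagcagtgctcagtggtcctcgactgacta
Selp: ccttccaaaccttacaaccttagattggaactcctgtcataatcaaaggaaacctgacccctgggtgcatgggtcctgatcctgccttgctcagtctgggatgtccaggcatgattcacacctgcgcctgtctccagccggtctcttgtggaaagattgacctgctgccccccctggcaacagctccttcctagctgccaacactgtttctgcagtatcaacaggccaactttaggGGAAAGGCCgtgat
The Sele promoter held TATAAA at -49 and the NF-kappaB-like letters at -145 from the start site, and the Selp promoter held the latter on the other strand at -14. Of 32851 mouse promoters of the same length 12.4% held TATAAA and 15.7% the other motif, and a match is a description of letters, not a binding site.

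Sele was at 0.563, 0.443, 16 and 33.9 RPKM in tumor stroma and at 2.68, 2.17, 3.76 and 1.01 RPKM in healthy stroma. Tumor replicates 3 and 4 were above every healthy library and replicates 1 and 2 under every one, so the call depended on which tumor libraries entered (3.68, SE 0.50, adjusted p = 0.00931 with tumor replicates 3 and 4 alone, and 2.71, adjusted p = 0.203 with all 4). Selp was at 0.528, 1.18, 18.6 and 54.1 RPKM in tumor stroma and at 11.9, 6.07, 11.7 and 5.28 RPKM in healthy stroma, which gave 2.37 (SE 0.49, adjusted p = 0.0332) with replicates 3 and 4 alone. It overlaps the antisense gene Gm16587, which was at 9.67 and 17.5 RPKM in those libraries, and reads of both cannot be told apart without strand. Insr, the insulin receptor, was at 2.28, 1.88, 17.8 and 22.3 RPKM in tumor stroma and at 6.03, 4.8, 6.74 and 3.68 RPKM in healthy stroma (2.21, SE 0.29, adjusted p = 0.00789 with replicates 3 and 4 alone). Inhbb, a subunit of activins, was at 1.72, 0.884, 5.06 and 6.74 RPKM in tumor stroma and at 0.379 to 1.83 RPKM in healthy stroma (3.01, SE 0.57, adjusted p = 0.0266). The blood endothelial median was 0.37 in the same fit. These genes were picked for high values in tumor replicates 3 and 4, so a value over that median was to be foreseen. Which cells held their transcripts was not tested. Of the 11 endothelial adhesion genes tested, the selectins were the 2 called with tumor replicates 3 and 4 alone, 2 were called against healthy replicates 1 to 3 and 0 with all 4.

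Basement membrane genes, which fibroblasts and vessels share, fell in part. Of 16 tested, 5 fell, with a median of -1.84 (4 with tumor replicates 3 and 4 alone, 4 against healthy replicates 1 to 3). Lama2, a laminin chain of fibroblasts and muscle, was at 0.0577, 0.0812, 0.751 and 0.368 RPKM in tumor stroma and at 7.93, 8.2, 5.12 and 15.7 RPKM in healthy stroma, a fall by 4.61 (SE 0.85, adjusted p = 0.0141). Lama1 fell by 3.34. Col4a1, a collagen chain of basement membranes, was at 1.25, 1.69, 38.7 and 43 RPKM against 37.2, 30.1, 28.4 and 23.9 RPKM and was not called (-0.22, adjusted p = 0.916). The falls of Col4a6, Lamb2 and Lamc1 were lost as calls without healthy replicate 2 (-3.86), without healthy replicate 4 (-1.41) and without any library but tumor replicate 4 (-2.63 to -1.92).

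None of the 3 TGF-beta ligands, which drive fibroblast activation, was called higher. Tgfb1 was at 0.837, 0.665, 3.11 and 3.61 RPKM in tumor stroma and at 2.43, 2.44, 4.88 and 1.02 RPKM in healthy stroma, and the groups overlapped (-0.06, SE 0.60, adjusted p = 0.967, a value whose sign turned with tumor replicates 3 and 4 alone, 0.61, and without tumor replicate 1, tumor replicate 2 or healthy replicate 3, 0.21, 0.22 and 0.27). Tgfb2 was at 2.18, 2.17, 1.12 and 0.812 RPKM against 5.3, 4.79, 3.55 and 6.73 RPKM, with no overlap, but it did not pass the test with all 4 tumor libraries (-1.30, adjusted p = 0.0883) and fell with replicates 3 and 4 alone (by 2.13, adjusted p = 0.0183). Tgfb3 fell by 2.60 (SE 0.56, adjusted p = 0.0242), from 5.25, 3.33, 2.71 and 13.4 RPKM to 1.02, 0.896, 0.685 and 0.563 RPKM, a call that was lost without tumor replicate 1 (-2.72) or 3 (-2.49) and with replicates 3 and 4 alone (-3.03).

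Among 14 ligands and activators 3 fell and 1 rose (4 and 3 with tumor replicates 3 and 4 alone, 5 and 4 against healthy replicates 1 to 3). Ltbp4, which stores latent TGF-beta in the matrix, was at 1.07, 1.19, 5.87 and 5.19 RPKM against 29.1 to 72.6 RPKM and fell by 3.42 (SE 0.64, adjusted p = 0.0145). Ltbp3 fell by 2.03 and was lost without tumor replicate 1 (-2.13) or 3 (-1.94) or healthy replicate 4 (-1.47). Itgb6, the chain of an epithelial integrin that activates TGF-beta, rose by 5.26 (SE 0.99, adjusted p = 0.015), at 2.04, 1.4, 0.891 and 0.502 RPKM beside 2.46 RPKM in tumor epithelium. Of 16 response genes 1 rose, Adam12, from 0.472 to 0.943 RPKM to 3, 2.32, 2.12 and 1.61 RPKM, beside 2.45 RPKM in tumor epithelium (2 with tumor replicates 3 and 4 alone, 3 against healthy replicates 1 to 3).

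**Figure D4:**
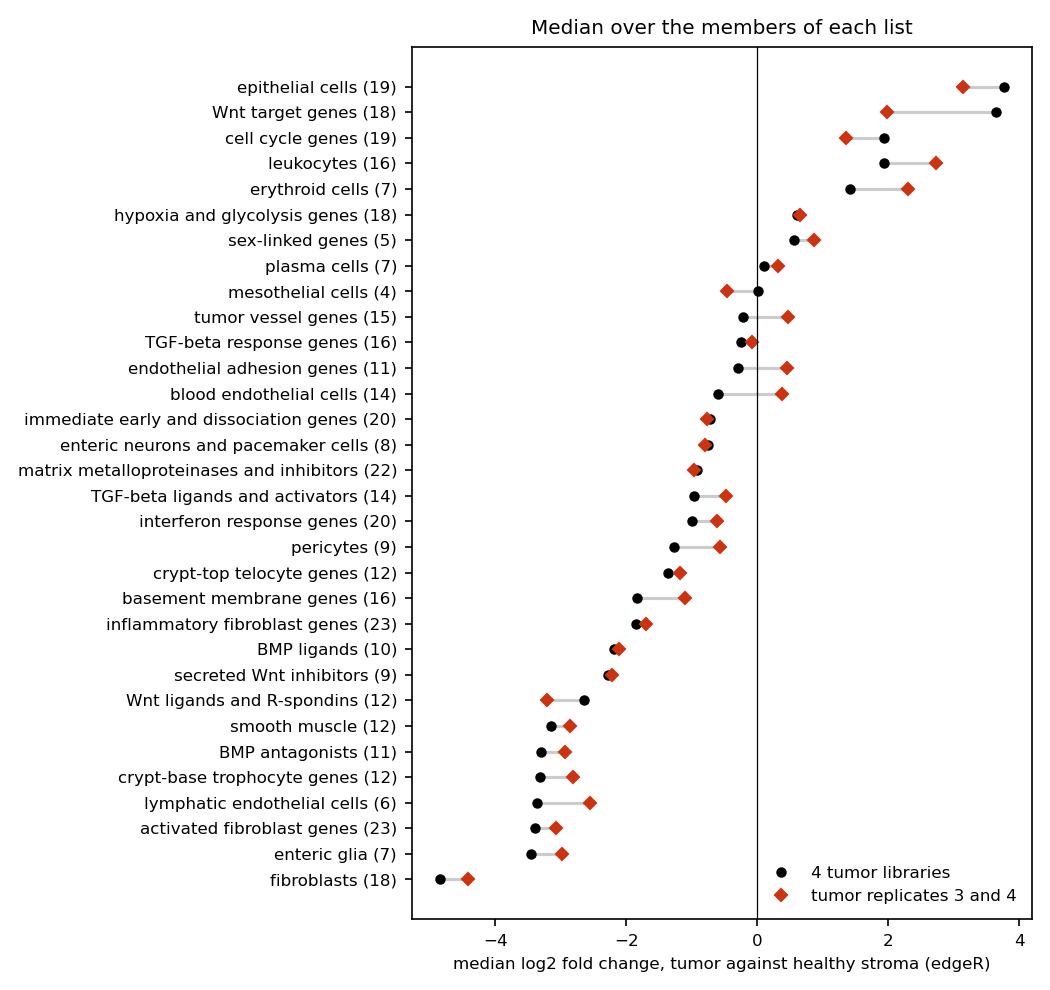
Median log2 fold change of each gene list in tumor against healthy stroma, with all 4 tumor libraries and with tumor replicates 3 and 4 alone, and a vertical line at 0, near the median of all genes (0.03). The number of genes tested stands in parentheses. Fibroblast markers lie furthest left (-4.85), and the blood endothelial list changes side between the fits (-0.61 and 0.37).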

How the data were processed

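The authors sequenced amplified cDNA, aligned it to mm10 (Bowtie 2 is named in the submitters' processing notes) and deposited 2 tables of 45706 genes. The expected counts deposited by the authors are not normalized and were mostly not whole (99.6% of nonzero values), so they were rounded. The RPKM values deposited by the authors were used for levels only. The counting of reads with several matches and of strand was not given in the sources used here. Symbols came from GENCODE M21.

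Genes kept by filterByExpr were tested with edgeR 4.0.16 (TMM, robust quasi-likelihood) in R 4.3.3 on the 8 libraries, without a block. The SE was computed from the fold change and the F statistic. The fit was also run on counts simulated from gene proportions common to all libraries. That simulation held no libraries of differing cell mixture, unlike the tumor group here. Replicate numbers name different mice, and same-numbered libraries did not deviate together (correlations of -0.257 to 0.179). Genes were named if they were among the 12 largest calls in a direction whose log2 CPM averaged 4 or more and whose groups did not overlap, among the rises above every tumor epithelial library by the same rule, called members of 32 gene lists, or Tgfb1, Tgfb2, Tgfb3, Igfbp7, Mmp9, Apc and Epcam. List members not called are named as examples of their list, chosen after their values were seen. A few genes that meet this rule are not reported here. Members and lists were chosen with earlier results of these data known. The alternatives covered limma-voom 3.58.1, DESeq2 1.42.0, scaling, filters, RPKM, covariates, a replicate block and left-out libraries, and 4 were added after the data were seen. The authors' own comparison method was limma.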

Additional observations from a re-analysis of the deposited data

Results flagged for a closer look

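Of 82 sets of 4 values examined, 17 held a highest library whose distance from the next, as a share of the range, passed Dixon's 95% critical value for 4 values. Chance gives about 1 in 20 where sets are independent and values normally distributed. The sets here shared libraries, and many of their genes were picked from the same data, so 17 of 82 cannot be set against that share. Healthy stromal replicate 4 was the highest library in 13 of the 17. It stood apart in the epithelial marker level (0.984), in Bpifb5 (0.976), Epcam (0.952), Cfi (0.913), Pla2g2a (0.896) and Dsc3 (0.846), all higher on average in tumor stroma, and in Ces1d (0.952), Opcml (0.916), Efemp1 (0.904), Dpt (0.889), Adamtsl3 (0.884), Kcnk2 (0.883) and Htra3 (0.873), which fell. Healthy stromal replicate 1 was the highest for Krt23 (0.856) and Mmrn1 (0.8291). In tumor stroma, replicate 3 was the highest for Kcnk2 (0.8775) and replicate 4 for Ces1d (0.866). The cause was not tested.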

How the results depend on the processing

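Most results kept their direction, and many calls depended on the fit. Of 118 genes followed that were called, 64 stayed called without any 1 library and 24 in every alternative that could be fitted, and scaling by RLE size factors changed the call of 0 of 124 genes followed. Beside 646 higher and 956 lower genes, DESeq2 gave 1242 and 1471, at least 10 counts in every library 376 and 571, limma on log2(RPKM + 1) 102 and 453 and the replicate block 145 and 317. The replicate numbers name different mice and did not pair the libraries, and the block ended the calls of 62 of the 124 genes. The number of higher genes was 1199 with all 40 libraries in 1 model, 240 with the epithelial marker level as a covariate and 1076 for tumor replicates 3 and 4 against healthy replicates 1 to 3, which was added after the data were seen. The number of lower genes was 1439 on log2(RPKM + 0.1) and 631 with tumor replicates 3 and 4 alone. Leaving out 1 library gave 221 to 797 higher and 606 to 964 lower genes. Against tumor epithelium, 0 of the 38 genes named singly or for the size of their change were called in either direction, 11 higher by DESeq2, 2 higher with the replicate block (whose numbers do not match the mice here either), 13 higher and 12 lower with tumor replicates 3 and 4 alone, 14 and 13 there by limma-voom with or without the mouse as a block, and 0 to 10 higher and 0 lower without 1 library. Of the 646 rises, 51 lay above and 39 below every epithelial library, 103 and 329 counting tumor replicates 3 and 4 alone and 52 to 67 and 39 to 117 without 1 library. As a mean over the list, epithelial markers in healthy stroma were at 12.76% (3.65% as the median). The value of Tgfb1 turned from -0.06 to 1.92 with the epithelial covariate, 0.61 with tumor replicates 3 and 4 alone, 0.35 against healthy replicates 1 to 3 and 0.21, 0.22 and 0.27 without tumor replicate 1, tumor replicate 2 or healthy replicate 3 (-0.47 to 0.27 over all libraries left out), and that of Apc from 0.43 to -0.67 with the covariate. Of 32 lists 23 had a median below 0, and 22 to 25 without 1 library. The cause of these changes was not tested. Depth was 12814976 to 26516326 counts a library, and 4 libraries a group limit the precision of each change.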

Other observations

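Of 20 interferon response genes 3 fell and 0 rose, with a median of -1.0 (0 fell with tumor replicates 3 and 4 alone, 5 against healthy replicates 1 to 3). Ifit3, an interferon-induced antiviral protein, was at 0.131, 0.139, 1.62 and 0.621 RPKM in tumor stroma and at 19.4, 13.3, 11.9 and 1.37 RPKM in healthy stroma (-3.90, SE 0.98, adjusted p = 0.0404), where healthy replicate 4 was below tumor replicate 3. Mx1 and Mx2, GTPases of the same response, were at -1.99 and -2.60. The calls of all 3 were lost without healthy replicate 1 (-3.65, -1.93 and -2.54) or 2 (-3.85, -1.87 and -2.43), that of Ifit3 also without tumor replicate 1, 2 or 4 or healthy replicate 3 (-3.99 to -3.56) and that of Mx2 also without tumor replicate 2 (-2.50).

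Of 23 genes of inflammatory fibroblasts 3 fell and 0 rose, with a median of -1.85 (1 and 1 with tumor replicates 3 and 4 alone, 5 and 2 against healthy replicates 1 to 3). Ccl11, the chemokine eotaxin, was at 0.12, 0.978, 1.54 and 1.22 RPKM in tumor stroma and at 46.3, 42.9, 37.7 and 124.5 RPKM in healthy stroma, a fall by 5.69 (SE 0.82, adjusted p = 0.00664). Mmp3 fell by 3.75. Tnfaip6, a hyaluronan-binding protein, fell by 5.34, a call that was lost without any tumor library or healthy replicate 2 (-5.68 to -5.17). Cxcl2, a chemokine for neutrophils, rose with tumor replicates 3 and 4 alone (3.25) and was at 45.4 and 40.4 RPKM there and at 658 RPKM on average in sorted tumor neutrophils.

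Of 20 immediate early genes, which tissue dissociation also induces, 2 fell, with a median of -0.72 (0 with tumor replicates 3 and 4 alone, 1 against healthy replicates 1 to 3). Klf4 fell by 1.62, lost as a call without tumor replicate 2 (-1.54) or healthy replicate 4 (-1.30), and Egr1 by 1.70, lost without any library but healthy replicate 3 (-1.86 to -1.29). Of 18 hypoxia genes 1 rose, Eno1, with a median of 0.61 (1 rose and 1 fell with tumor replicates 3 and 4 alone, 3 and 1 against healthy replicates 1 to 3), but its RPKM of 0.0482 to 0.531 and its near-identical copies make the value uncertain. Its call was lost without any library but tumor replicate 1 (1.66 to 2.09). Of 8 genes of enteric neurons and pacemaker cells 2 fell, Ano1 among them, with a median of -0.76 (1 of 9 with tumor replicates 3 and 4 alone, 2 of 9 against healthy replicates 1 to 3). The call of Ano1 (-1.87) was lost without any library but healthy replicates 2 and 3 (-2.04 to -1.45).

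Of 6 lymphatic endothelial genes Mmrn1 and Ccl21a fell and Prox1 rose, with a median of -3.37 (0 fell and 1 rose with tumor replicates 3 and 4 alone, 2 and 1 against healthy replicates 1 to 3). Prox1, a lymphatic transcription factor that epithelial cells of these tumors also held, was at 46, 39.4, 17.1 and 4.95 RPKM in tumor stroma, at 0.82 to 3.87 RPKM in healthy stroma and at 47.5 RPKM on average in tumor epithelium, a rise of 4.43 (SE 0.85, adjusted p = 0.0159). The calls of Prox1 without healthy replicate 2 (4.20) and of Ccl21a (-4.96) without any library but tumor and healthy replicate 4 (-5.37 to -3.53) were lost.

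Red cell transcripts differed between libraries of both groups. The 7 erythroid markers summed to 178, 355, 4522 and 1295 RPKM in tumor stroma and to 4.31, 438, 2308 and 243 RPKM in healthy stroma, and 0 of them were called, with a median of 1.42. The hemoglobin genes have near-identical copies, so that their split is uncertain. No plasma cell (median 0.10), mesothelial (0.01) or sex-linked gene (0.57) was called, and 1 mesothelial gene, Krt14, rose for tumor replicates 3 and 4 against healthy replicates 1 to 3. The 6 sex-linked genes summed to 10.8, 54.3, 13.0 and 13.4 RPKM in tumor stroma and to 23.4, 9.29, 32.2 and 47.1 RPKM in healthy stroma. The lack of calls therefore does not show that the groups match in sex. With Xist, a transcript of female cells, as a covariate, 515 genes rose and 683 fell, and 34 genes followed over the fits lost their call.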
